A study of Homo sapiens with 4 samples.

Results

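The keratin genes were the 55 rows of the 4 count tables whose gene identifier belonged to a protein-coding GENCODE v29 symbol made of KRT, a number and at most one letter from A to C, out of 57500 genes counted. RNA had been sequenced from SUM159, a human triple-negative and metaplastic breast cancer cell line. One library came from the parental line (genotype Parental Control), and 3 came from NOS2KO clones 1, 5 and 6 of the same line. The clones had received the NOS2 Double Nickase Plasmid, which directs a pair of Cas9 nickases to the gene for inducible nitric oxide synthase (iNOS). They were then grown under puromycin and picked by iNOS immunoblot and a nitrite/nitrate assay. No other treatment was named, and all cells grew in DMEM with serum. Each clone was 1 line grown out from edited cells, no plasmid-treated, NOS2-intact clone was among the samples, and the spread between clones stood in for replicate error. Being a clone, having passed puromycin and lacking NOS2 cannot be told apart here.

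Keratins are the intermediate filament proteins of epithelial cells. An acidic type I keratin pairs with a basic type II keratin, and the pairs build filaments that are anchored at desmosomes and hemidesmosomes and bear mechanical load. Simple epithelia, including the luminal cells of the breast, use KRT8 and KRT18 with KRT7 and KRT19. Basal and myoepithelial cells of the breast carry KRT5, KRT14, KRT15 and KRT17, and vimentin takes the place of keratins in mesenchymal cells. The 55 members were sorted into 4 basal keratins (KRT5, KRT14, KRT15 and KRT17), 5 simple keratins (KRT7, KRT8, KRT18, KRT19 and KRT20) and 46 others, which are mainly keratins of wounded, suprabasal and mucosal epithelium, of the hair and of its root sheath. By position 27 lay in the type II cluster on chromosome 12, which also holds KRT18, the one type I gene there, and 28 lay in the type I cluster on chromosome 17. Levels are counts scaled by library size in the usual CPM unit after TMM, a scaling that sets libraries to a common level for the bulk of genes, and levels of different genes are compared only after division by counted exon length (CPM per kb).

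Several keratins are near-copies of each other, and this bears on which gene a read was given to. Among the keratins tested, KRT14, KRT16 and KRT17 were the furthest below parental cells in the clones by the fit described below. For these, the stretch of coding sequence around the longest run shared by all 3 is printed below. Capitals stand at the positions where the 3 genes are not identical. The 150-base windows lie on the minus strand of chromosome 17 of GRCh38 (GENCODE v29 transcripts), each within 1 coding exon, at chr17:41586382-41586531 for KRT14, chr17:41612230-41612379 for KRT16 and chr17:41624150-41624299 for KRT17.
KRT14: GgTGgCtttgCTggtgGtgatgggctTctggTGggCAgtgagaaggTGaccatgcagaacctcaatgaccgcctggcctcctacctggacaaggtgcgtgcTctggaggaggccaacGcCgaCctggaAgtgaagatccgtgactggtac
KRT16: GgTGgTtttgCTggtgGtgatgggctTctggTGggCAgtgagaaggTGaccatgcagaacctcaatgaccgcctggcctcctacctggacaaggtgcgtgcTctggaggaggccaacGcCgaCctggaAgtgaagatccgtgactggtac
KRT17: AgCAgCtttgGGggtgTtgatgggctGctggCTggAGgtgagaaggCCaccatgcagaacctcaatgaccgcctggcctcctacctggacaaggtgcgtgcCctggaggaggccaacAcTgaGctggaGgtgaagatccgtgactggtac
Of the 19 positions in capitals, KRT14 and KRT16 differed from each other at 1, KRT17 differed from KRT14 at 18, and KRT17 differed from KRT16 at 19. Windows as long as 1 read of a pair (150 bases) that were shared exactly made up 0.709% of the KRT14 coding sequence against KRT16, and none was shared between KRT17 and either. KRT17 thus had no coding window of read length in common with these 2 genes. Each annotated KRT17 pseudogene had at most 33 counts, but the sequence of KRT17 was not compared with theirs. How reads that map to more than 1 gene were treated was not given, so these counts do not show whether KRT17 lost reads.

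The hair keratins KRT81, KRT83 and KRT86 were closer. Their stretch is shown in the same way, since KRT81 and KRT86 are discussed as a pair below. It crosses an exon junction and spans chr12:52288020-52288381 on the minus strand for KRT81, chr12:52316895-52317701 on the minus strand for KRT83 and chr12:52305007-52305368 on the plus strand for KRT86.
KRT81: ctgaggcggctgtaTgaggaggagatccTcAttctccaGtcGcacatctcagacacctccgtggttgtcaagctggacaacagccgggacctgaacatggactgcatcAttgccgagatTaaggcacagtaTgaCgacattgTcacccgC
KRT83: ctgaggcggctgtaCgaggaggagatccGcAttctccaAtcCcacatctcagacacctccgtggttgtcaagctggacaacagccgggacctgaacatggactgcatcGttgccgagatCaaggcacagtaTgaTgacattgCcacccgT
KRT86: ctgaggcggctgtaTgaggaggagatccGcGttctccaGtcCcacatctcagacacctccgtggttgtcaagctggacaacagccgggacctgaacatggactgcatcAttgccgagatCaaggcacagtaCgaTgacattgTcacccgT
Capitals mark 11 positions where the 3 genes are not all alike, around a run of 66 bases that all 3 share. KRT81 differed from KRT86 at 7 positions, KRT83 from KRT86 at 6 and KRT81 from KRT83 at 9, and no 150-base window that KRT81 and KRT86 share covers this stretch. Of the 150-base windows of KRT81, 33.3% occurred exactly in KRT86, and 34.8% of those of KRT86 occurred in KRT81, so how reads were split between this pair is uncertain. KRT83 had none of these windows in common with either. Among the activation keratins, KRT6B shared 16.4% of its windows with KRT6C and 7.76% with KRT6A.

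Promoter sequences (RefSeq, GRCh38.p14, from 250 bases before to 50 after the first gene start listed) were at hand for 34 of the 55 keratins. The 34 leave out KRT7, KRT14, KRT16, KRT17 and KRT80, which are 5 of the 7 keratins that met the criterion described below. The letters TATAAA, read on both strands, were found in 20 of the 34, among them KRT10 and KRT71, against 3264 of 27305 promoters of this length. They were not found in the windows of KRT5, KRT8 or KRT75, the other keratins of at least 1 CPM whose promoter was at hand. The KRT8 window, chr12:52926420-52926719, lay inside the counted span of this minus-strand gene, which begins at 52949954. Which start these cells used was not tested. The AP-1 letters TGANTCA were found in none of the 34, against 7.76% of all promoters.

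The counts on genes came to between 90467395 and 122171287 per library, of which keratins took 0.127 to 0.2041%. NOS2 had no more than 3 counts in parental cells, clone 1 and clone 6 but 18 in the library labelled clone 5, so its mRNA did not check the genotype, and that library is called by its label. Values of the clones are given in the order clone 1, the library labelled clone 5, clone 6. Of the markers that define epithelial cells, EPCAM had 5, 6, 19 and 28 counts and CDH1 4, 1, 44 and 8 in parental cells and the 3 clones. CLDN4 and ESRP1, the rest of the 4 listed, had 5.21 and 5.65 CPM in parental cells and were lower in every clone. Of the 3 receptors whose lack defines triple-negative cells, ESR1 stood at 0.0785 to 0.741 CPM, PGR had no more than 3 counts and ERBB2 had 48.3 to 106.2 CPM. Of the 3 leukocyte markers, PTPRC (CD45) had 4.45 CPM in parental cells and 68.4, 105.4 and 41.7 CPM in the clones and met the criterion described below, CD3E had at most 8 counts, and CD14 had 12.8, 2.29, 4.28 and 11.3 CPM. The summed level of the leukocyte list was 17.3 CPM in the parental library and 53.0 to 109.7 CPM in the clones, and its part in any keratin difference was not tested. Fewer cells that carry a keratin and less of its mRNA in each cell cannot be told apart in these bulk libraries.

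Most keratins never reached 1 CPM in any library. With a floor of 3 counts, which equalled 0.0246 to 0.0332 CPM, 24 of the 55 keratins were at or under it in every library, and 11 of these had no count in any library. These 24 comprised 10 of 17 hair keratins, 6 of 9 keratins of the inner root sheath and companion layer, 7 of 13 suprabasal, mucosal and corneal keratins, and KRT20, the keratin of gut and urothelium. A further 18 keratins were above the floor in at least 1 library but never reached 1 CPM. The remaining 13 reached 1 CPM in at least 1 library: all 4 basal keratins, 3 of the 5 simple keratins (KRT7, KRT8 and KRT18) and 6 of the 46 others (KRT80, KRT86, KRT81, KRT16, KRT75 and KRT10). KRT19, the usual partner of KRT7 and KRT8 in luminal cells, had 1, 16, 1 and 2 counts in parental cells and the 3 clones. No difference between the groups passed the test for KRT19 at these counts.

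**Figure D1:**
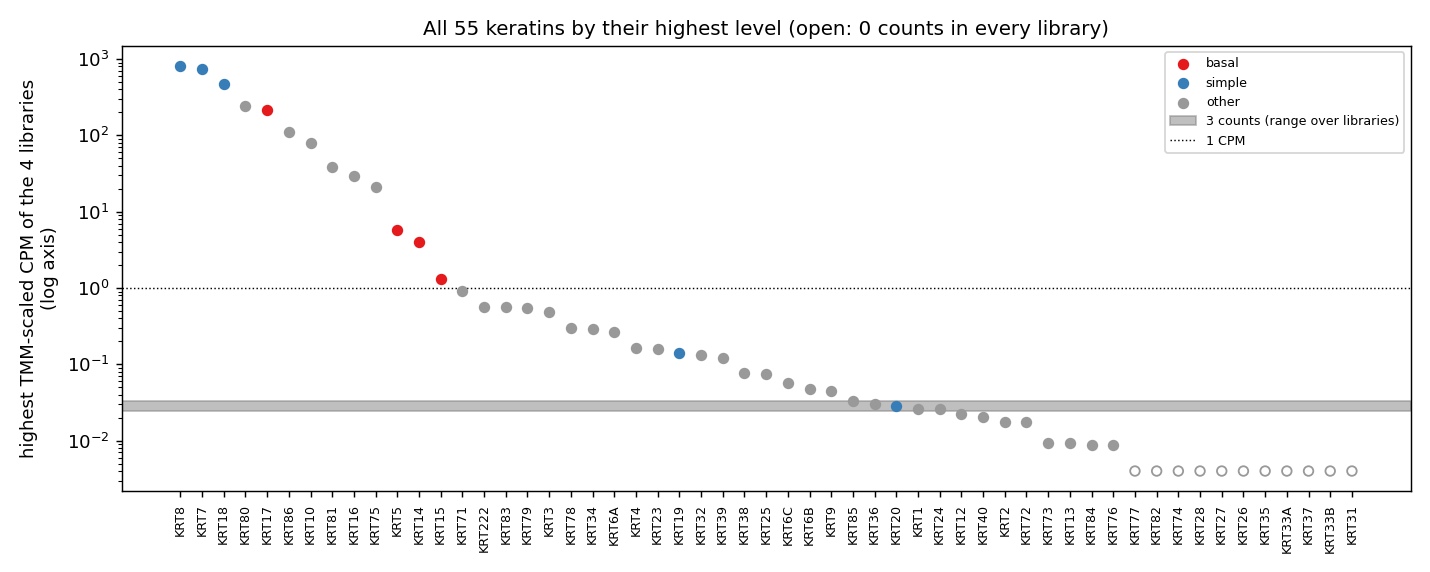
Highest TMM-scaled CPM of the 4 libraries (y, log axis) for each of the 55 keratins (x, ordered by that value), coloured by class. The dotted line is 1 CPM, the grey band is the level of 3 counts (0.0246 to 0.0332 CPM), and open circles are the 11 keratins with no count in any library. 13 keratins lie above the dotted line.

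The criterion took the thresholds of the study's volcano plot, an unadjusted p below 0.05 with a log2 fold change beyond 1 in size. The study used the Wald test there, while the edgeR quasi-likelihood test over all genes was used here. Of 26 keratins that passed the low-count filter, 7 met the criterion. 6 were lower in the clones (KRT17, KRT14, KRT16, KRT75, KRT80 and KRT7), and 1, KRT71, was higher. Over all 22511 genes tested the criterion was met by 9.58%, with 5.34% lower and 4.24% higher. No keratin had an adjusted p below 0.05 (edgeR, Benjamini-Hochberg over all genes), and over all genes 1 gene, or 0.00444%, passed. An unadjusted p below 0.05 was found for 7 keratins. Over all 22511 genes it was found for 1538 that were lower and 1052 that were higher in the clones. In the DESeq2 Wald test 3 keratins (KRT17, KRT16 and KRT75) had an adjusted p below 0.05 against 4.94% of all genes. DESeq2 gave no adjusted p (NA) for 10 of the 26. There the criterion was met by 9 keratins against 12.1% of all genes, 6 lower against 5.08% and 3 higher (KRT5, KRT8 and KRT71) against 7.07%. The median log2 fold change was -0.32 over the 26 keratins and 0.10 over all genes. As the smaller group held 1 library, a gene could pass the filter through its level in 1 library of either group. KRT19, for example, was tested with 1, 16, 1 and 2 counts in parental cells and the 3 clones. A keratin near the floor in most libraries was therefore tested only where at least 1 library was higher.

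The 13 keratins of at least 1 CPM gave a count that rests on no test. In 7 of them (KRT17, KRT14, KRT16, KRT75, KRT80, KRT86 and KRT81) every clone was below the parental library by more than 1 on the log2 scale, against 5.93% of the 15280 genes that reached 1 CPM in any library. KRT15 was above by more than 1 in every clone, against 5.39% of those genes. KRT7 and KRT10 were below the parental library in all 3 clones by less than that in at least 1, KRT8 and KRT18 were above it in all 3, and KRT5 went both ways. KRT81 sat at the edge of this count and left it with upper quartile or total count scaling, at log2 ratios of -0.90 and -0.96 in the library labelled clone 5. The side of the parental library on which each clone lay was the same under all 4 scalings for each of the 13. The share of all genes with every clone on the same side of the parental library was not counted. Such a side is therefore only a description, here and for the genes below.

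**Figure D2:**
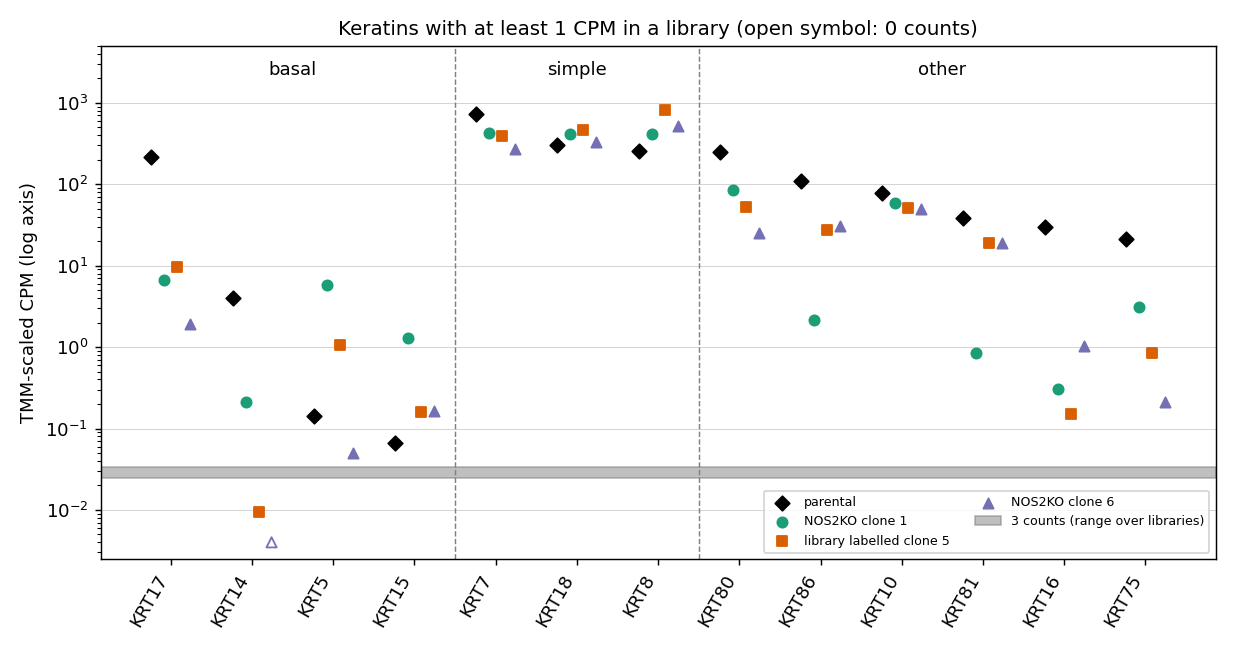
TMM-scaled CPM (y, log axis) of the 13 keratins that reached 1 CPM, by class and with 1 symbol per library. The open triangle is KRT14 in clone 6, which had 0 counts and is drawn at an arbitrary height, and the grey band is 3 counts. KRT17 stands at 215.7 CPM in the parental library and at 1.93 to 9.56 CPM in the clones, while KRT8 and KRT18 are higher in every clone than in the parental library.

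Among the basal keratins, KRT17 and KRT14 were lower in every clone, KRT15 was higher in every clone at low levels, and KRT5 differed in direction between clones. KRT17 (ENSG00000128422, chr17:41619437-41624842), a type I keratin of basal cells that is also induced in wounds, had 215.7 CPM in parental cells and 6.65, 9.56 and 1.93 CPM in the clones. The parental library lay far above all 3 clones, whose mean was 6.05 ± 3.85 CPM (SD, n = 3). On the log2 scale the ratios of the clones to parental cells were -5.02, -4.50 and -6.81, with exact 95% intervals of -5.12 to -4.91, -4.59 to -4.40 and -7.02 to -6.60. These intervals cover counting error only, and the clones differed from each other by more than that. The fitted log2 fold change was -5.16 (SE 0.86), with an adjusted p of 0.275 in edgeR and 2.43e-06 in DESeq2. KRT17 remained past the criterion without any 1 clone, at log2 fold changes of -5.63 to -4.73.

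KRT14 (ENSG00000186847, chr17:41582279-41586921), the type I partner of KRT5 in basal cells, had 358 counts (3.96 CPM) in parental cells and 24, 1 and 0 counts in the clones. The parental library was above all 3 clones, and 2 of the clones were under the floor. Clone 1 had a log2 ratio of -4.24 (-4.90 to -3.65), the library labelled clone 5 had one of -8.72 that rests on 1 count (-14.03 to -6.23), and clone 6 was at least 130.2-fold lower when its 0 is set to 3 counts. The fitted log2 fold change was -5.72 (SE 2.02) with an edgeR adjusted p of 0.386. KRT14 was a minor transcript even in the parental library, where its 1.74 CPM per kb compared with 85.0 for KRT17.

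KRT5 (ENSG00000186081, chr12:52514575-52520687), the type II basal keratin, had 13 counts in parental cells and 659, 114 and 5 counts in the clones. Clone 1 and the library labelled clone 5 were above the parental library and clone 6 was not. The log2 ratios were 5.32 (4.54 to 6.24), 2.90 (2.06 to 3.85) and -1.50 (-3.34 to 0.08) in that order. The fit gave 3.98 (SE 2.20) with an edgeR adjusted p of 0.608, and KRT5 met the criterion only without clone 6 or in DESeq2. KRT15 (ENSG00000171346, chr17:41513743-41522529), a keratin of basal and progenitor-like cells, had 6, 150, 17 and 16 counts in parental cells and the 3 clones. The log2 ratio of clone 1 was 4.30 (3.14 to 5.77), while the intervals of the other clones, -0.15 to 2.90 and -0.14 to 2.93, included 0. KRT5 and its partner KRT14 thus stood on opposite sides of the parental level in clone 1 and in the library labelled clone 5.

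The simple keratins made up most keratin mRNA in all 4 libraries and did not move as a block. KRT7 (ENSG00000135480, chr12:52232520-52252186), a type II keratin of glandular ducts, had 738.8 CPM in parental cells and 432.1, 394.7 and 273.6 CPM in the clones. All 3 clones were below the parental library, and their mean was 366.8 ± 82.9 CPM (SD, n = 3). In log2 terms the clones stood at -0.77, -0.90 and -1.43, with intervals of -0.79 to -0.76, -0.92 to -0.89 and -1.45 to -1.41. The fitted log2 fold change was -1.01 (SE 0.39), just past the fold threshold, with an edgeR adjusted p of 0.416. This call was lost without the library labelled clone 5 or without clone 6 (log2 fold change -0.83 in the latter), in DESeq2 and with RLE or upper quartile scaling. KRT7-AS, an antisense transcript, shares 282 counted exon bases with KRT7 and had 234 to 285 counts.

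KRT8 (ENSG00000170421, chr12:52897187-52949954), the type II keratin of all simple epithelia, had 253.9 CPM in parental cells and 416.1, 806.5 and 524.9 CPM in the clones. Every clone was above the parental library, and the range between the clones was wider than the gap from the lowest clone to parental cells, with a mean of 582.5 ± 201.4 CPM (SD, n = 3). Their log2 ratios to parental cells were 0.71, 1.67 and 1.05. The fitted log2 fold change was 1.20 (SE 0.47) with an edgeR adjusted p of 0.464, and KRT8 met the criterion without clone 1, with no count filter and in DESeq2. KRT18 (ENSG00000111057, chr12:52948871-52952901), its type I partner, had 303.0, 419.2, 467.3 and 325.9 CPM in parental cells and the 3 clones. Clone 6 was close to the parental level, at a log2 ratio of 0.10 (0.08 to 0.13), against 0.47 in clone 1 and 0.62 in the library labelled clone 5. The fit gave 0.42 (SE 0.35), with an edgeR adjusted p of 0.678.

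KRT8 and KRT18 lie side by side on opposite strands and share 525 exon bases in the annotation, 16.3% of the counted exon length of KRT18. Whether the counting used strand was not given in the sources used here. The counted exon length of KRT8 was 6881 bases against a coding length of 1536, so its level per kb is set low relative to its coding sequence. With that limit, the KRT8 to KRT18 ratio in CPM per kb was 0.392 in parental cells and 0.464, 0.807 and 0.753 in the clones. The KRT7 to KRT8 ratio, both type II, was followed in CPM between libraries, not as a ratio of molecules, and stood at 2.91 in the parental library and 1.04, 0.489 and 0.521 in the clones. The parental library was outside the range of the clones for both ratios. For KRT7 and KRT8 this adds nothing new, since KRT7 was lower and KRT8 higher in every clone. Neither ratio was among the planned comparisons.

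Of the other keratins KRT80, with 56.5 CPM per kb in parental cells the highest among them, was lower in every clone. KRT80 (ENSG00000167767, chr12:52168996-52192000), a type II keratin found near desmosomes of many epithelia, had 245.7 CPM in parental cells and 84.7, 53.0 and 25.4 CPM in the clones. Every clone was below the parental library, and the clone mean was 54.4 ± 29.6 CPM (SD, n = 3). Ratios of -1.54, -2.21 and -3.27 were found on the log2 scale. The fitted log2 fold change was -2.18 (SE 0.68) with an edgeR adjusted p of 0.354, and KRT80 met the criterion without any 1 clone, at -2.65 to -1.83.

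KRT16 (ENSG00000186832, chr17:41609778-41615899), the type I activation keratin of wounded and hyperproliferative epithelium, had 2664 counts (29.5 CPM) in parental cells and 35, 16 and 101 counts in the clones. All 3 clones were low, at 0.150 to 1.02 CPM, and far from the parental library. The log2 ratios were -6.59 (-7.12 to -6.11), -7.62 (-8.43 to -6.92) and -4.85 (-5.15 to -4.56), and the fit gave -5.90 (SE 1.09) with an adjusted p of 0.281 in edgeR and 5.65e-06 in DESeq2. Its type II partners are the KRT6 keratins, which had low counts: KRT6A had 19, 30, 7 and 0 counts, and KRT6B and KRT6C had at most 6. A parental KRT16 level of 11.9 CPM per kb thus stood beside 0.0718, 0.00485 and 0 CPM per kb for KRT6A, KRT6B and KRT6C in the same library.

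KRT75 (ENSG00000170454, chr12:52424070-52434525), a type II keratin of the companion layer of the hair follicle, had 1910 counts (21.1 CPM) in parental cells and 358, 90 and 21 counts in the clones. Every clone was below the parental library, and the clones were spread over a wide range. The log2 ratios were -2.76 (-2.93 to -2.60), -4.64 (-4.97 to -4.34) and -6.63 (-7.33 to -6.02). The fitted log2 fold change was -3.92 (SE 1.40), with an adjusted p of 0.379 in edgeR and 0.0445 in DESeq2, and the edgeR criterion was no longer met without the library labelled clone 5. KRT71 (ENSG00000139648, chr12:52543909-52553147), a type II keratin of the inner root sheath and the only keratin to meet the criterion upward, had 0 counts in parental cells and 21, 7 and 89 counts in the clones. Against 3 counts in the parental library it was at least 5.52-fold, 1.98-fold and 27.2-fold higher in that order. It stayed below 1 CPM, and it did not meet the criterion without clone 1 or without clone 6.

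The hair keratins KRT86 and KRT81 set clone 1 apart from the other clones. KRT86 (ENSG00000170442, chr12:52249300-52309163) had 111.0 CPM in parental cells and 2.18, 27.5 and 31.0 CPM in the clones. KRT81 (ENSG00000205426, chr12:52285913-52291534) had 39.0, 0.846, 19.1 and 19.1 CPM in the same order. In both genes every clone was below the parental library, and clone 1 was below the other clones by a larger step than these were below the parental library on the log2 scale. The KRT86 log2 ratios were -5.67 (-5.86 to -5.49), -2.01 (-2.07 to -1.95) and -1.84 (-1.90 to -1.78), and those of KRT81 were -5.53 (-5.83 to -5.24), -1.03 and -1.03, both with an interval of -1.11 to -0.95. The fits gave -2.46 (SE 1.34) for KRT86 and -1.58 (SE 1.53) for KRT81, with edgeR adjusted p-values of 0.508 and 0.693. Without clone 1 both met the criterion, at -1.92 and -1.03. As the pair shares 33.3 to 34.8% of its 150-base coding windows, part of one gene's reads may be counted for the other, or dropped, and the 2 genes are not independent evidence. The annotated span of KRT86 also contains that of KRT81 on the other strand, though the 2 share no counted exon base. KRT83, the remaining gene of this set, had 40, 2, 60 and 25 counts and was again lowest in clone 1.

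KRT10 (ENSG00000186395, chr17:40818117-40822595), the type I keratin of differentiating epidermis, was the steadiest of the keratins that were lower. It had 78.7 CPM in parental cells and 59.0, 51.8 and 49.4 CPM in the clones. The clones lay close together at 53.4 ± 5.00 CPM (SD, n = 3), below the parental library. The log2 ratios were -0.42, -0.60 and -0.67, and the fit gave -0.56 (SE 0.27) with an edgeR adjusted p of 0.488. KRT1, the usual type II partner of KRT10 in epidermis, was at or under 3 counts in every library.

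**Figure D3:**
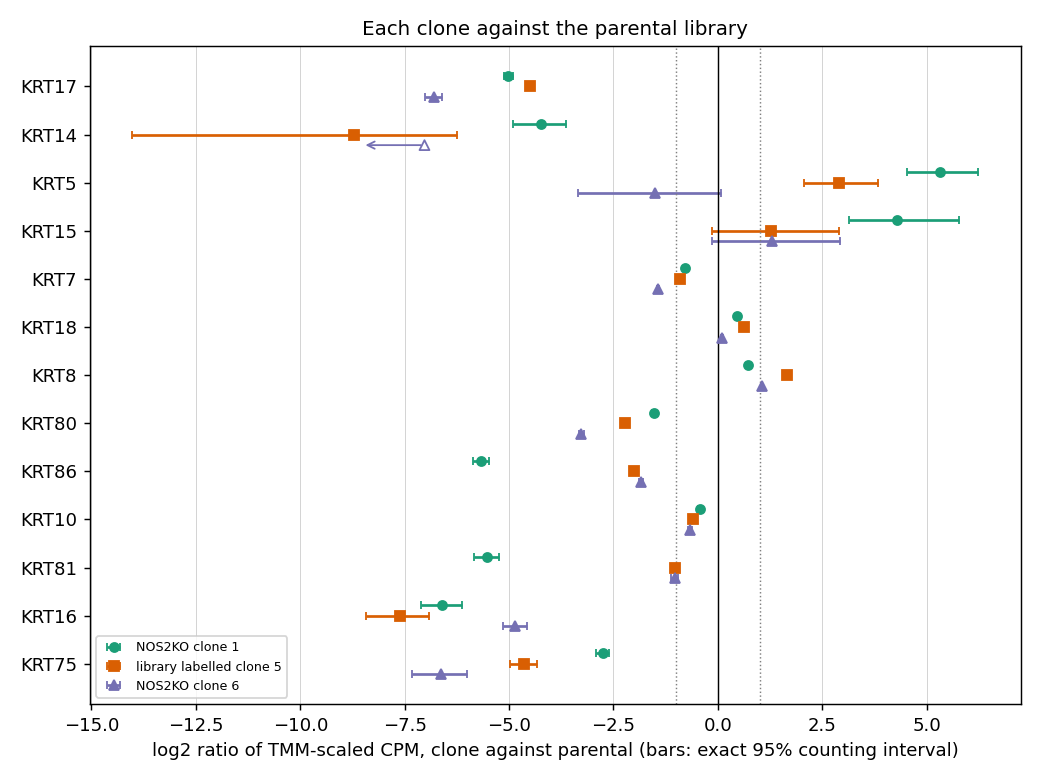
Log2 ratio of TMM-scaled CPM of each clone to the parental library (x) for the 13 keratins (y), with bars for the exact 95% counting interval and dotted lines at -1 and 1. The open triangle with an arrow is the bound for KRT14 in clone 6, at least 130.2-fold lower. KRT17, KRT14, KRT16, KRT75, KRT80, KRT86 and KRT81 lie left of -1 in every clone, and KRT86 and KRT81 in clone 1 lie at -5.67 and -5.53, far from the other clones.

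By class, the basal sum was lower in the clones, the simple sum was near the parental level, and the sum of the others was lower. The 4 basal keratins summed to 219.9 CPM in parental cells and 13.9, 10.8 and 2.14 CPM in the clones, a mean log2 ratio of -5.00 ± 1.47 (SD, n = 3). KRT17 set this sum in the parental library. Without it the basal keratins came to 4.17 CPM in the parental library and to 7.26, 1.24 and 0.213 CPM in the clones. Clone 1 was thus above the parental level in CPM, but not per kb (1.61 against 1.78 CPM per kb). The 5 simple keratins summed to 1296, 1268, 1669 and 1124 CPM, a mean log2 ratio of 0.04 ± 0.29 (SD, n = 3) with clones on both sides of the parental library. Here opposite differences met in 1 sum, since without KRT8 and KRT18 the mean log2 ratio was -1.04. The 46 others summed to 527.1 CPM in the parental library and 152.9, 153.9 and 128.1 CPM in the clones, a mean log2 ratio of -1.87 ± 0.15 (SD, n = 3). Its small SD hides members that ranked the clones in opposite order. The hair keratins summed to 151.0 CPM in the parental library and 3.35, 47.3 and 50.5 CPM in the clones, and KRT80 had 84.7, 53.0 and 25.4 CPM in the clones. The sums were described without a test, and the smallest p that an exact permutation test could give with 1 and 3 libraries is 0.25.

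The make-up of keratin mRNA per kb was therefore different in the parental library and in the clones. Simple keratins took 53.7% of the summed keratin CPM per kb in parental cells and 84.3, 85.1 and 81.9% in the clones. Basal keratins took 15.0% in parental cells and 1.20, 0.959 and 0.266% in the clones. The leading keratin per kb was KRT7 in the parental library, with 31.1%, and KRT18 in the clones, with 37.1, 34.4 and 34.0%. KRT8 had 6.36% in the parental library and 17.2, 27.8 and 25.6% in the clones. Type II and type I keratins, which pair in filaments, stood at a per kb ratio of 1.52 in the parental library and 1.18, 1.43 and 1.38 in the clones, a mean log2 ratio of -0.20 ± 0.15 (SD, n = 3). The basal to simple ratio per kb differed by a mean log2 ratio of -5.11 ± 1.15 (SD, n = 3), and by -5.05 ± 1.30 in CPM. The comparison of types was chosen after the values had been seen.

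**Figure D4:**
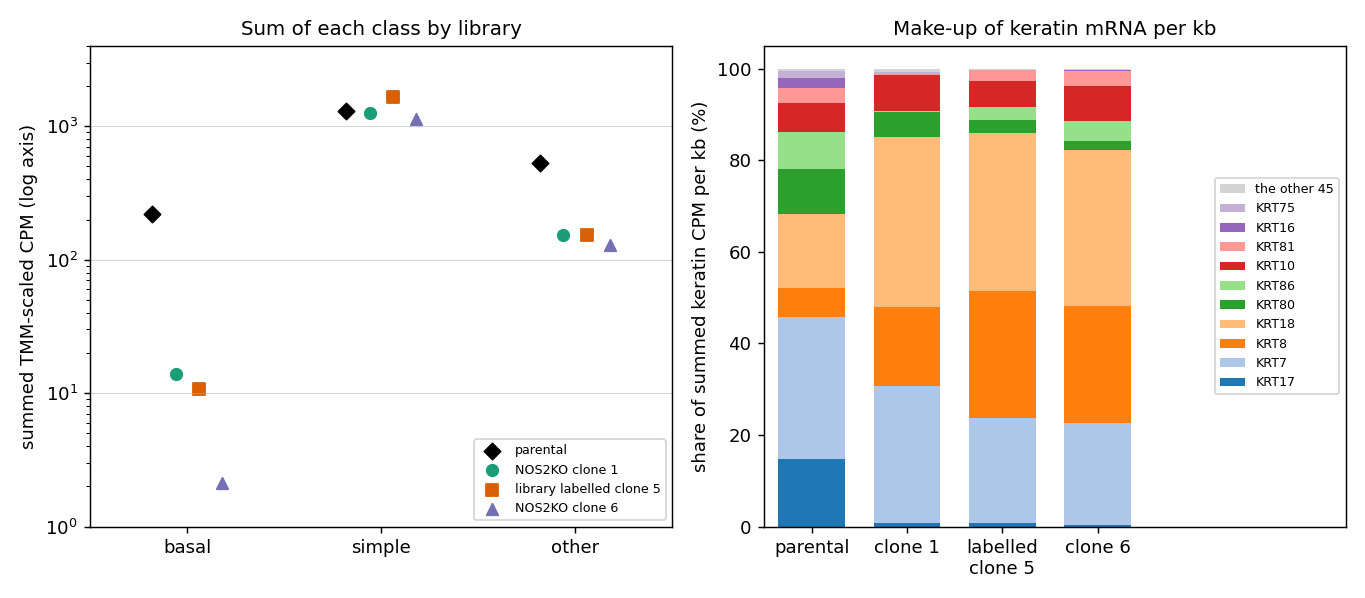
Left, the summed TMM-scaled CPM (y, log axis) of the basal, simple and other keratins, with 1 symbol per library. Right, the share of each keratin in the summed keratin CPM per kb (y, %), as stacked bars for the 4 libraries. The basal sum is 219.9 CPM in the parental library and 2.14 to 13.9 CPM in the clones, and KRT8 and KRT18 fill more of the bar in each clone than in the parental library.

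The genes that work with keratins were read from lists of partners and regulators. Of 12 cytolinkers and desmosomal partners, 10 were tested, none met the criterion downward and 1 met it upward, against 5.34% and 4.24% of all genes, at a median log2 fold change of 0.13 beside 0.10 over all genes. This was PKP2, a plakophilin of desmosomal plaques, with 2, 45, 21 and 44 counts in parental cells and the 3 clones. PLEC (plectin), which ties keratin filaments to hemidesmosomes, had 469.0, 592.8, 779.2 and 571.7 CPM, with every clone above the parental library (log2 fold change 0.47, SE 0.35). DSP (desmoplakin), which anchors keratins at desmosomes, had 52.9 CPM in the parental library and 41.6 in the library labelled clone 5, against 0.523 in clone 1 and 0.822 in clone 6. For DSP the clones thus stood at unlike levels, and the fit gave -1.89 (SE 2.44) with an edgeR adjusted p of 0.767.

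Of 13 other cytoplasmic intermediate filament genes, 10 were tested, at a median log2 fold change of 0.99. In edgeR none met the criterion in either direction, against 9.58% of all genes. VIM (vimentin), the filament protein of mesenchymal cells, had 1655 CPM in parental cells and 3855, 2890 and 3339 CPM in the clones. Every clone was above the parental library, the fitted log2 fold change was 1.02 (SE 0.38) and the edgeR adjusted p was 0.440. The other mesenchymal markers did not all share this direction. ZEB1, a repressor of epithelial genes, had 83.7 CPM in parental cells and 39.5, 50.1 and 57.8 CPM in the clones, all below the parental library (log2 fold change -0.77, SE 0.32). CDH2 (N-cadherin) had 159.5, 182.7, 156.3 and 109.2 CPM, and FN1 (fibronectin) had 2155, 2352, 3006 and 2447 CPM. None of the 4 met the criterion in edgeR, while VIM met it in DESeq2 (log2 fold change 1.04).

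Of 12 epithelial transcription factors, 9 were tested, 4 met the criterion downward and 1 upward, against 5.34% and 4.24% of all genes, at a median log2 fold change of 0.07. TP63 (p63), the master regulator of basal epithelial cells, was the one that was higher, with 42.4 CPM in parental cells and 126.9, 107.7 and 76.5 CPM in the clones (log2 fold change 1.29, SE 0.37, edgeR adjusted p 0.371). All 3 clones were above the parental library, while KRT14 and KRT17 were below it. The ETS factors EHF and ELF3 and the grainyhead factor GRHL3, all of differentiating epithelia, were lower. EHF had 4.62 CPM in the parental library and 0.418, 0.0844 and 0.122 CPM in the clones (log2 fold change -4.46, SE 1.05). ELF3 had 2.78, 0.549, 0.122 and 0.101 CPM, and GRHL3 had 1.06, 0.270, 0.0751 and 0.112 CPM. KLF5, a zinc finger factor of basal and proliferating epithelial cells, had 60.6 CPM in the parental library and 25.4, 25.8 and 11.4 CPM in the clones (log2 fold change -1.54, SE 0.55, edgeR adjusted p 0.386). For all 4 the parental library lay above every clone.

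Of 14 genes of the cornified envelope, the cross-linked shell of squamous cells, 8 were at or under 3 counts in every library, including IVL, LOR and SPRR3 with no count at all, and 4 were tested, at a median log2 fold change of -0.28. One met the criterion in each direction, which 5.34% (lower) and 4.24% (higher) of all genes did. CSTA (cystatin A) met the criterion downward, with 3.65 CPM in the parental library and 0.262, 0.0844 and 0.254 CPM in the clones (log2 fold change -4.18, SE 0.83). CNFN (cornifelin) met it upward, with 15, 52, 95 and 94 counts. Among 4 epithelial markers, ESRP1, a splicing regulator of epithelial cells, met it downward, with 5.65 CPM in the parental library and 0.0698, 0.807 and 0.223 CPM in the clones. CLDN4 had 5.21 CPM in the parental library and 1.63, 4.58 and 2.69 CPM in the clones and did not meet it. EPCAM and CDH1 (E-cadherin), the adhesion proteins of epithelial cells, did not exceed 0.284 and 0.413 CPM in any library, and the fits gave 1.61 (SE 1.26) and 1.89 (SE 2.07). Of 3 myoepithelial markers, MYLK (myosin light chain kinase) met the criterion upward, with 20.1 CPM in parental cells and 81.1, 56.8 and 67.5 CPM in the clones. ACTA2 (smooth muscle actin) had 821, 794, 1452 and 724 counts and CNN1 (calponin) had 1, 2, 15 and 3, so the clones shared no direction for ACTA2 in CPM (9.08 against 6.92, 13.6 and 7.34). The luminal factors GATA3 and FOXA1 went opposite ways in every clone, with 947, 616, 475 and 159 counts for GATA3 and 243, 530, 2568 and 2183 for FOXA1. In edgeR neither these 2 nor the 2 endothelial markers, PECAM1 and VWF, met the criterion, which 9.58% of all genes met. In DESeq2, where 12.1% of all genes met it, FOXA1 and VWF did, at log2 fold changes of 2.67 and 3.32. GATA3 and PECAM1 did not.

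**Figure D5:**
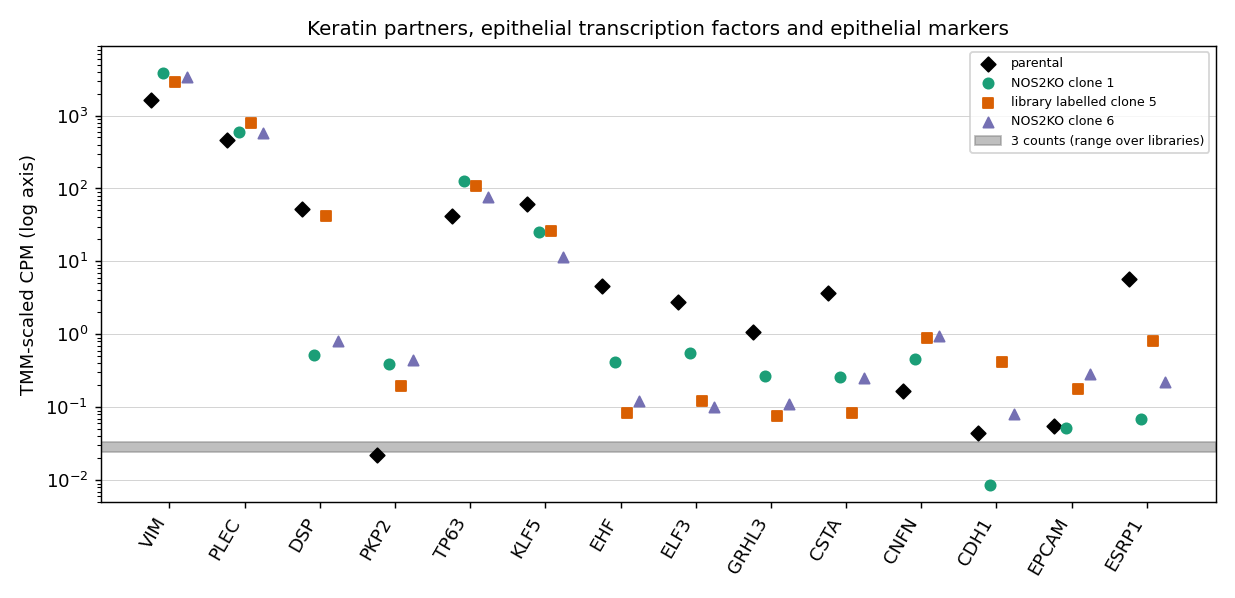
TMM-scaled CPM (y, log axis) of keratin partners, epithelial transcription factors, cornified envelope genes and epithelial markers (x), with 1 symbol per library and a grey band at 3 counts. TP63 and VIM are higher and KLF5, EHF, ELF3, GRHL3 and CSTA are lower in every clone than in the parental library, and DSP is low in clone 1 and clone 6 alone.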

How the data were processed

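RNA-seq counts per gene were taken as the authors deposited them, as whole read counts for 1 parental and 3 NOS2KO libraries. Per the labels, poly(A) libraries (NEBNext Ultra II) were read as 150-base pairs, and the submitters' processing notes name bcl2fastq 2.17, Trimmomatic 0.36, STAR 2.5.2b, featureCounts of Subread 1.5.2, DESeq2 and GRCh38. The treatment of multi-mapped reads and of strand was not given in the sources used here. Identifiers were matched to GENCODE v29, and 53 of the 55 keratins had the v29 ends there (all but KRT12 and KRT17). Coordinates are those of the count tables.

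Counts were filtered by group (filterByExpr), TMM-scaled and tested with the quasi-likelihood test of edgeR 4.0.16 (R 4.3.3) over 22511 genes, with Benjamini-Hochberg adjustment. DESeq2 1.42.0 was an alternative. The criterion was an unadjusted p below 0.05 with a log2 fold change above 1 or below -1. With 1 parental library, the spread comes from the 3 clones alone (2 residual degrees of freedom, common dispersion 0.319), is assumed to hold for the parental line, and covers no repeat of either. Ratios of single clones have exact Clopper-Pearson 95% intervals, which cover counting error only. The fit was tested on simulated counts. Other scalings, filters, fit settings and omission of each clone were tried.

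Keratins with at least 1 CPM in a library are described in all 4 libraries, and the others by counts and ranges. From the partner lists, genes that met the criterion are given, with VIM, PLEC, DSP, TP63, CDH1 and EPCAM. Any other gene named was chosen after its values were seen. Members and lists were chosen with earlier results of these data known. Figures and intervals were made with Python 3.11.15, scipy 1.17.1 and matplotlib 3.10.9. RefSeq promoters were not at hand for the other keratins.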

Additional observations from a re-analysis of the deposited data

Results flagged for a closer look

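Clone 1, the library labelled clone 5 and clone 6 are given in that order. KRT8P3, a processed pseudogene of KRT8 that belongs to no comparison above, had 83 counts in parental cells and 170, 303 and 154 counts in the clones. It was singled out because its level was above the parental one in every clone, but this was not particular to it. KRT18P59 was also higher in every clone (8 counts against 33, 27 and 22), while KRT8P33 was lower (99 against 61, 60 and 51). All KRT8 and KRT18 pseudogenes together had 15.02 CPM in parental cells and 16.58, 16.55 and 17.61 CPM in the clones. KRT8 itself had 22948 counts in parental cells and 47724, 85969 and 51755 in the clones. Whether reads of KRT8 were given to KRT8P3 was not tested.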

How the results depend on the processing

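7 keratins met the criterion, and 5 to 10 did when 1 clone was left out, and 5 to 9 under the other scalings, filters and tests. With DESeq2, 3 keratins had an adjusted p below 0.05, against 0 in edgeR, and 0 in each edgeR alternative. The simple sum stood at a mean log2 ratio of 0.04, and at -1.04 without KRT8 and KRT18. With 1 clone left out, the mean log2 ratio was -5.52 to -4.17 for the basal sum. For the 14 keratins with a fit discussed above, 134 alternative fits kept both the direction and the side of the criterion, 8 gained a call and 11 lost one, and none changed sign. KRT17, KRT16, KRT14 and KRT80 met the criterion in all of them. KRT71 was lost without clone 1, without clone 6 and with the other edgeR setting of the quasi-likelihood fit, and KRT7 with no filter or a 1 CPM filter as well. The causes were not tested. With a floor of 10 counts or of 0.1 CPM, 29 keratins in place of 24 were near the floor. The count of keratins lower by over 1 in every clone was 6 or 7 under other scalings and 7 with any 1 clone left out, alternatives that were chosen after seeing the data. No paired analysis was possible because there was 1 parental library, and the numbers 1, 5 and 6 are names of clones.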
